A study of Mus musculus with 17 samples.

Results

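The 34 genes described here are leukocyte and myeloid genes, a list of surface proteins, signalling proteins, receptors, macrophage products and granule proteases of blood cells. All 34 were found among the 19937 named genes measured on each of 17 expression arrays, each by a single probe set, and all were followed on every array. The arrays measured RNA of CD31+CD45-Ter119- cells from the aorta-gonad-mesonephros region (AGM) of E11.5 mouse embryos, the site where blood stem cells arise from the aortic wall. Fresh cells were sorted by the receptor Kit into Kit- cells (3 arrays) and Kit+ cells (3 arrays), without culture. The other cells were sorted as CD31+CD45-Ter119- without regard to Kit and were kept for 2 h on OP9, a mouse stromal cell line made to express the Notch ligand Jag1 or Dll4. They were then sorted again into the CD45- populations Kit-J (2 arrays) and Kit+J (3 arrays) from OP9-Jag1, and Kit-D (3 arrays) and Kit+D (3 arrays) from OP9-Dll4. Every sample was a pool of AGM tissue with no genetic change named, and the culture medium held IL3, SCF, IL6, VEGF, erythropoietin and other factors. Cultured cells had shared a dish with OP9 cells. The fresh arrays came from an earlier data set, so culture and the set of arrays differ together and cannot be told apart in any comparison of cultured with fresh cells.

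Leukocytes share a core of genes: the phosphatase CD45, encoded by Ptprc, the tetraspanin Cd53, the actin regulator Coro1a and the small GTPase Rac2. Macrophages add a growth factor receptor (Csf1r), Fc receptors and complement C1q, whereas granulocyte precursors make the granule proteases Mpo, Elane and Prtn3. At this stage of development the AGM holds macrophages derived from the yolk sac beside the clusters of emerging blood cells, some of which already carry CD45. The antibody gate removed cells with CD45 on their surface, so the level of Ptprc RNA and of the genes usually found with it can be read within CD45- sorts.

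Several of these genes are known targets of the transcription factor PU.1. RefSeq (GRCm38.p6) gave the sequence from 250 bases before to 50 bases after the transcription start for 27 of the 34 genes, 34 promoters in all. The letters GAGGAA, a core of PU.1 sites that holds the GGAA shared by ETS factors, stood on either strand in 21 of these 34 promoters (61.8%), against 28.3% of 32841 promoters of this length. The letters TGTGGT, found in RUNX sites, stood in 23.5% of the promoters against 16.8%, and TTGCNNAA, found in C/EBP sites, in 8.82% against 10.8%; neither shares its letters with GAGGAA. A match describes the sequence and is not evidence of binding. Below are the promoters of Cd53 (chr3:106790100-106790399, minus strand), Mrc1 (chr2:14229164-14229463, plus strand) and Mpo (chr11:87793534-87793833, plus strand), 5′ to 3′ on the strand of the gene, with GAGGAA or its complement TTCCTC in capitals. They are shown because these 3 genes had the widest spread between replicate arrays of a leukocyte surface gene, a macrophage gene and a granule protease.
Cd53: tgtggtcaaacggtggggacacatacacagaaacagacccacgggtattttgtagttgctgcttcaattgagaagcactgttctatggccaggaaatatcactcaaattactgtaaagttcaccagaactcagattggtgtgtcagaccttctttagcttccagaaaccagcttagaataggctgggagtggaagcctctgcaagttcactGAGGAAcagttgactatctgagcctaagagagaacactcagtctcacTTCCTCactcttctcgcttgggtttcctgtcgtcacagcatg
Mrc1: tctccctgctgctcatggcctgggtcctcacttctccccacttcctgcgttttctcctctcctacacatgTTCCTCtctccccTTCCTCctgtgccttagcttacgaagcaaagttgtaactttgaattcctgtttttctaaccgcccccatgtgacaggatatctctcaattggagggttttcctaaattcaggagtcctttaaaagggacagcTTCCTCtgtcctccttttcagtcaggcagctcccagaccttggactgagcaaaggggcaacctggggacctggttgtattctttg
Mpo: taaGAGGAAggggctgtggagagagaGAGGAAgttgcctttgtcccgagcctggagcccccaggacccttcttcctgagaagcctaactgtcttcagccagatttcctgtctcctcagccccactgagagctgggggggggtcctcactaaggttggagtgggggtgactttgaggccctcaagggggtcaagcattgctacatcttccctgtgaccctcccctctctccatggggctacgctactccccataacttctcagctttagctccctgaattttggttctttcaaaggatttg
Each of the 3 windows held GAGGAA more than once, at 2 places in Cd53, 3 in Mrc1 and 2 in Mpo.

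Some arrays stood apart from their labels or their group. For 4 arrays, Kit-J 1, Kit-J 2, Kit-D 3 and Kit+D 3, a description line named the opposite Kit population to the title and source, which were used here. On the Kit-J arrays the mean of 18 endothelial markers lay 2.09 and 1.68 below fresh Kit- cells on the log2 scale, near the fresh Kit+ range of -2.65 to -2.32, whereas on the Kit-D arrays it lay at 0.109, 0.083 and 0.584. The paper reports lower endothelial genes in Kit- cells after OP9-Jag1, by qRT-PCR of separate pools as well. The gene of the gate itself, Kit, stood at 9.08 on Kit-J 1 and 8.50 on Kit-J 2. Fresh Kit- arrays had 8.13 to 8.29 and fresh Kit+ arrays 9.44 to 9.55, so both lay between the fresh gates. Kit-D had 7.72, 7.05 and 8.02, below Kit-J by 1.2 (SE 0.29, limma adjusted p = 0.0202). Kit+J had 9.93, 9.02 and 9.30, a range that held Kit-J 1. The paper also reports a rise of Kit RNA in Kit- cells after OP9-Jag1. Neither the endothelial mean nor Kit can therefore settle the labels. Comparisons with Kit-J rest on the Kit-J arrays alone and cannot be made without them. The mean of 5 housekeeping genes differed by at most 0.297 from fresh Kit- cells on any array, and the mean of all genes by at most 0.0698.

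The mean level of the leukocyte genes differed most between replicates on OP9-Dll4. There most of them were high on replicate 1 of both gates and low on replicates 2 and 3. The mean of the 34 genes, relative to fresh Kit- cells on the log2 scale, was 0.471, -0.159 and -0.312 on the Kit- arrays and -0.437, -0.431 and -0.323 on the Kit+ arrays. The Kit-J arrays had -0.408 and -0.0198, and the Kit+J arrays had -0.866, -0.78 and -0.467. The Kit-D arrays 1, 2 and 3 had 0.167, -1.94 and -2.13, and the Kit+D arrays 1.32, -1.14 and -2.28. The highest and lowest arrays of a group therefore lay 0.782 apart in Kit-, 0.113 in Kit+, 0.388 in Kit-J and 0.4 in Kit+J, but 2.3 in Kit-D and 3.6 in Kit+D. Kit-D 1 was the highest Kit-D array for 33 of the 34 genes, against 36.8% of all genes, the exception being Cd27. Kit+D 1 was the highest Kit+D array for 34 of 34, against 31.8%, and the highest of all 17 arrays for 25 of 34, against 8.62%. Among the fresh cells, Kit- 1 was highest in its group for 33 of 34 genes, against 30.7%, with the smaller range given above, the exception being Was. In these bulk samples fewer leukocytes and less leukocyte RNA per cell cannot be told apart.

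**Figure D1:**
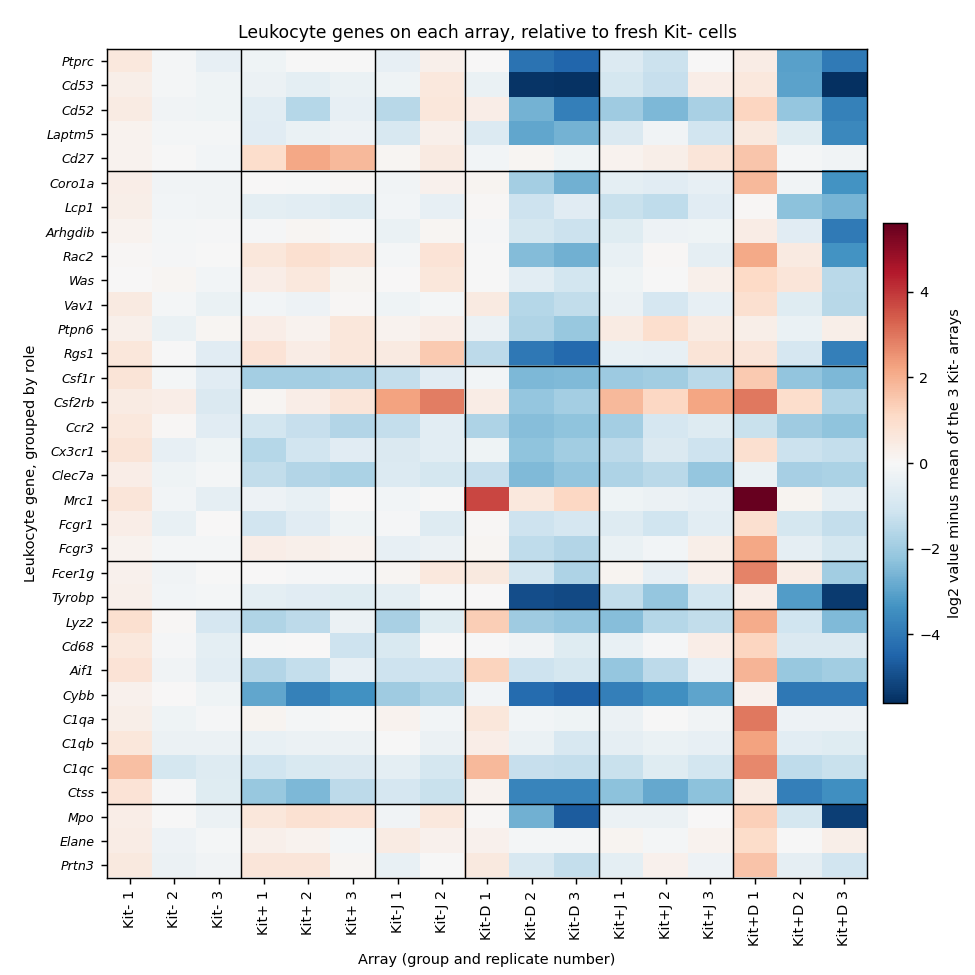
Each row is 1 of the 34 leukocyte genes, ordered by role from pan-leukocyte surface genes at the top to granule proteases at the bottom, and each column is 1 of 17 arrays. Colour gives the log2 value minus the mean of the 3 fresh Kit- arrays: most rows are blue on Kit-D 2, Kit-D 3 and Kit+D 3 and red or near white on Kit-D 1 and Kit+D 1.

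Ptprc, the gene of the CD45 antigen used in the gate, was plainly detected on most arrays of these CD45- sorts. Its log2 values were 9.20, 8.46 and 8.12 on Kit-, 8.35, 8.57 and 8.55 on Kit+, with 8.12 and 8.86 for Kit-J and with 7.84, 7.38 and 8.61 for Kit+J. They were 8.59, 4.46 and 4.16 on Kit-D, against 8.99, 5.54 and 4.64 on Kit+D. The replicate 1 arrays from OP9-Dll4 thus lay within the range of the other groups, and the other 4 arrays from OP9-Dll4 lay below every array of every other group. Cd53, a tetraspanin of leukocytes, had the widest spread of the 34, with a pooled SD of 1.88 within groups. It stood at 9.38, 4.27 and 4.24 on Kit-D and at 10.35, 6.77 and 4.17 on Kit+D, and between 8.48 and 10.33 on the other 11 arrays. Kit+D 2 lay between the other Kit+D arrays. The lysosomal protein gene Laptm5 stood at 9.41, 7.26 and 7.53 on Kit-D and at 10.71, 9.52 and 6.56 on Kit+D, so that Kit+D 2 was close to the other groups for this gene. Cd52, a small surface glycoprotein, stood at 8.05, 5.06 and 3.85 on Kit-D and at 8.89, 5.55 and 3.91 on Kit+D. It was also low on Kit+J, at 5.71, 5.20 and 5.86. Cd27, a TNF receptor family member of lymphocytes and blood progenitors, followed another pattern. It stood at 5.34, 5.13 and 4.99 on Kit- and at 6.14, 7.30 and 6.96 on Kit+, with no overlap, and among cultured arrays it was highest on Kit+D 1, at 6.70.

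The cytoskeletal and signalling genes had the same order of arrays, but stayed higher on Kit+D 2 than the macrophage genes did. Relative to fresh Kit- cells their mean was -0.147, -1.79 and -2.01 on Kit-D, against 0.924, -0.493 and -2.48 on Kit+D. Coro1a, which binds actin under the membrane, stood at 8.57, 6.50 and 5.69 on Kit-D and at 10.19, 8.21 and 5.04 on Kit+D. Rac2, a GTPase of blood cells, stood at 8.02, 5.63 and 5.39 on Kit-D and at 10.16, 8.57 and 4.72 on Kit+D. On Kit+D 2 both genes were near their fresh Kit+ values of 8.38 to 8.46 and 8.68 to 8.95. Arhgdib left the common range on a single array: it lay between 10.03 and 11.63 on 16 arrays and at 7.27 on Kit+D 3. Rgs1, a regulator of G protein signalling, stood at 6.84, 4.30 and 3.93 on Kit-D, below all arrays of Kit-, Kit+, Kit-J and Kit+J, and at 8.98, 7.34 and 4.48 on Kit+D. Ptpn6, which encodes the phosphatase SHP-1, departed from the pattern. It stood at 7.75, 6.41 and 5.99 on Kit-D but at 8.44, 7.71 and 8.43 on Kit+D, so that Kit+D 3 kept a high value for this gene alone among the 8. Lcp1, which bundles actin, Was, which promotes actin nucleation, and Vav1, a signalling protein of blood cells, spanned 7.06 to 10.0, 4.50 to 7.16 and 4.48 to 6.96 over the 17 arrays, with Kit+D 1 the highest for Was and Vav1 and Kit- 1 for Lcp1.

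Among the macrophage and monocyte receptors, Mrc1 was set apart from the rest. Mrc1, the mannose receptor of tissue macrophages, stood at 7.62, 4.49 and 5.03 on Kit-D and at 9.46, 4.04 and 3.36 on Kit+D, and between 3.38 and 4.54 on the other 11 arrays. It was thus high on Kit-D 1 and Kit+D 1 and low on all fresh arrays and all arrays from OP9-Jag1. Csf1r, the receptor for the macrophage growth factor, stood at 7.82, 6.99 and 6.49 on Kit-, at 5.19, 5.20 and 5.30 on Kit+, at 6.95, 4.57 and 4.65 on Kit-D and at 8.56, 4.88 and 4.57 on Kit+D. Fresh Kit+ cells lay below every fresh Kit- array for Csf1r. Csf2rb, the shared receptor chain for IL3 and GM-CSF, was high after OP9-Jag1, at 8.54 and 9.11 on the Kit-J arrays, at 8.08, 7.41 and 8.47 on the Kit+J arrays, whereas the fresh arrays ranged from 5.45 to 6.94. On OP9-Dll4 it stood at 6.66, 4.08 and 4.36 in Kit- cells and at 9.21, 7.24 and 4.57 in Kit+ cells. The mouse genome holds a near-identical neighbour, Csf2rb2, and whether the probe set tells them apart was not tested. Ccr2, the monocyte chemokine receptor, and Clec7a, the beta-glucan receptor dectin-1, were highest in fresh Kit- cells, at 6.67, 6.12 and 5.44 and at 6.78, 6.19 and 6.29. On Kit-D they stood at 4.36, 3.71 and 3.80 and at 5.13, 3.96 and 4.21, so that all 3 arrays, replicate 1 included, lay below fresh Kit- cells for both genes. The chemokine receptor Cx3cr1 and the Fc receptors Fcgr1 and Fcgr3 spanned 5.28 to 8.44, 4.32 to 6.56 and 4.79 to 8.60 over the 17 arrays, each with its highest value on Kit+D 1.

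The ITAM adaptors carry the signal of many activating receptors of myeloid cells. Tyrobp, also called DAP12, stood at 10.46, 5.50 and 5.39 on Kit-D and at 10.83, 7.35 and 5.11 on Kit+D, and between 8.32 and 10.74 elsewhere. Fcer1g, the common Fc receptor chain, stood at 7.33, 5.73 and 5.06 on Kit-D and at 9.54, 7.20 and 4.81 on Kit+D. For Tyrobp the 4 later OP9-Dll4 arrays lay below all others, whereas for Fcer1g Kit+D 2 lay within the range of the fresh and OP9-Jag1 arrays, 6.31 to 7.36.

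The mean of the 8 macrophage effectors separated the fresh gates as well as the OP9-Dll4 replicates. Between the fresh gates 2 of the 8 genes, Cybb and Ctss, did not overlap, both lower in Kit+. Of all genes 26.5% did not overlap between these gates, 10.5% lower in Kit+. None of the 8 was called in the comparison of the fresh gates below (smallest limma adjusted p = 0.127). Their mean relative to fresh Kit- cells was 0.738, -0.227 and -0.511 on Kit-, -1.22, -1.29 and -0.992 on Kit+, 0.683, -1.65 and -1.82 on Kit-D, against 1.72, -1.76 and -1.86 on Kit+D. Cybb, the catalytic subunit of the phagocyte oxidase, stood at 8.73, 8.52 and 8.25 on Kit- and at 5.61, 4.74 and 5.13 on Kit+. It stood at 8.35, 4.19 and 3.97 on Kit-D and at 8.72, 4.51 and 4.50 on Kit+D. Kit+D 1 was thus as high as fresh Kit- cells although fresh Kit+ cells were low. The lysosomal protease Ctss behaved alike, at 9.01, 8.16 and 7.56 on Kit-, 6.13, 5.73 and 6.77 on Kit+, 8.43, 4.55 and 4.54 on Kit-D, against 8.69, 4.44 and 4.81 on Kit+D. C1qc, a chain of complement C1q, was high on 3 arrays: Kit- 1 at 7.70, Kit-D 1 at 7.85 and Kit+D 1 at 8.68, against 4.60 to 5.47 on the other 14. The sister chains C1qa and C1qb reached 7.95 and 8.07 on Kit+D 1 and stayed between 4.68 and 5.62 and between 4.90 and 6.43 elsewhere. Lyz2, the lysozyme of myeloid cells, spanned 3.57 to 8.12, and Aif1, also called Iba1, 3.61 to 7.67, the first lowest on Kit+D 3, the second on Kit+J 1, and both highest on Kit+D 1. Cd68, a lysosomal glycoprotein, spanned only 6.20 to 8.58.

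Of the granule proteases, Mpo (myeloperoxidase) was, unlike most macrophage effectors, higher in the fresh Kit+ arrays. It stood at 9.61, 9.22 and 8.90 on Kit- and at 9.87, 10.08 and 9.99 on Kit+, with no overlap. In this direction 16% of all genes did not overlap, and Mpo was not called in the comparison of the fresh gates below. On Kit-D Mpo stood at 9.32, 6.56 and 4.59 and on Kit+D at 10.59, 8.27 and 3.97. The order of arrays was the same in both gates. Prtn3 (proteinase 3) spanned 4.67 to 7.60 and Elane (neutrophil elastase) 4.52 to 5.86, both highest on Kit+D 1. Elane exceeded 5.286, the median of all values, on 1 array and was the single gene of the 34 that a filter on dim genes removed.

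**Figure D2:**
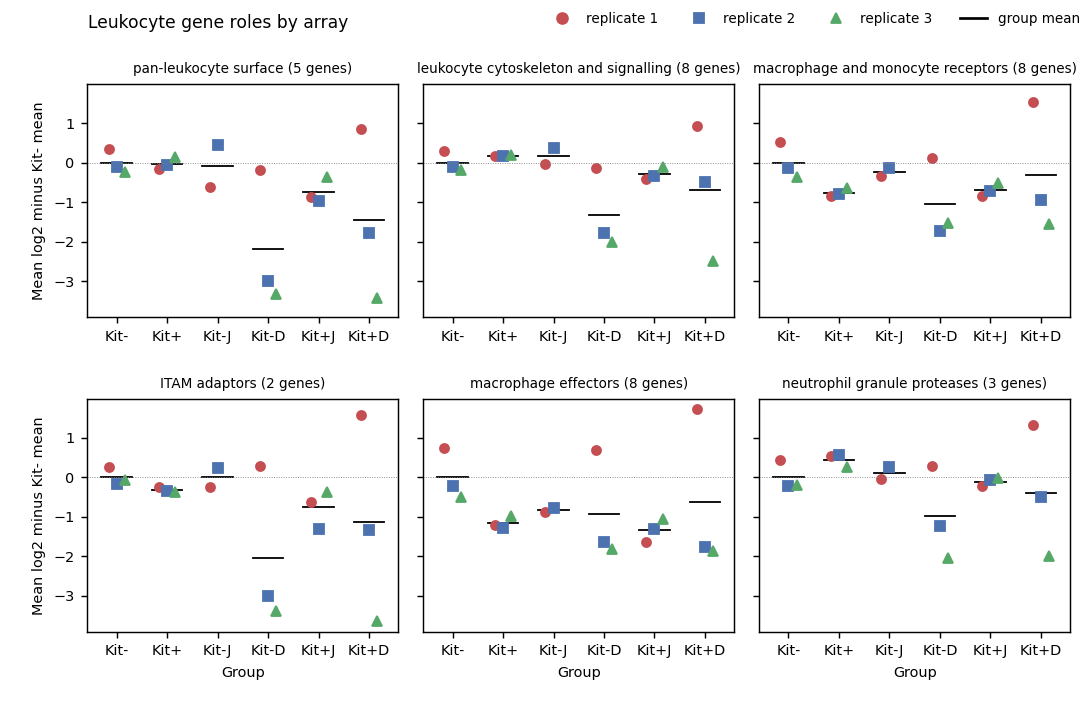
Each panel shows 1 role group of the leukocyte genes, with the mean log2 value minus that of the fresh Kit- arrays on the vertical axis, groups along the horizontal axis, 1 symbol per array by replicate number and a bar for the group mean. In all 6 panels the circles of Kit-D 1 and Kit+D 1 sit above the squares and triangles of replicates 2 and 3, and the macrophage panels are lower in fresh Kit+ than in fresh Kit- cells.

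The spread between replicates was then set against that of all genes. The pooled SD within the 6 groups had a median of 1.12 over the leukocyte genes and 0.253 over all genes, and 31 of the 34 were in the 10% of all genes with the largest SD. The exceptions were Clec7a with an SD of 0.491, Ptpn6 with 0.482 and Elane with 0.318. Group by group, 30 of the 34 were among that 10% in Kit-D, with a median SD of 1.17, and 31 in Kit+D, with a median of 2.24. In Kit- it was 17, with a median of 0.377, in Kit+ 9 (0.188), in Kit-J 6 (0.318) and in Kit+J 5 (0.339). Without the OP9-Dll4 arrays, 11 of the 34 were among that 10% and the median SD was 0.371 against 0.241 for all genes. The wide spread thus lay mainly in the OP9-Dll4 groups, with a smaller one in fresh Kit- cells.

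**Figure D3:**
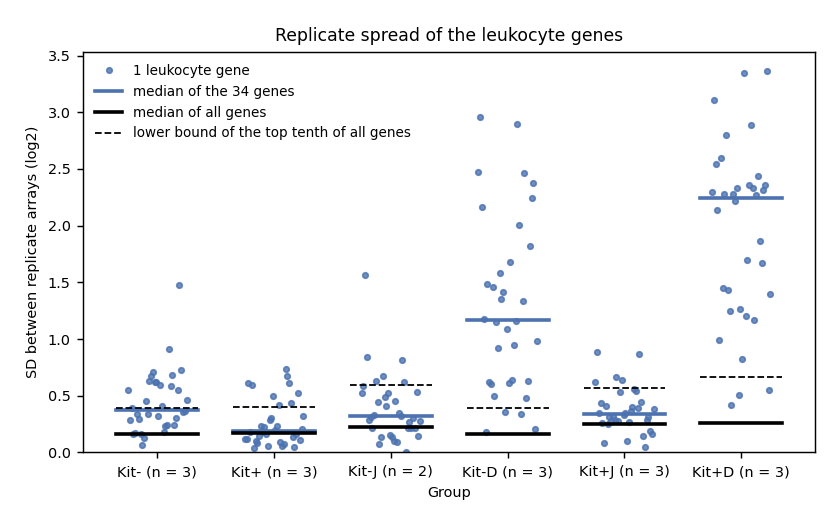
The SD between replicate arrays on the log2 scale is plotted for each leukocyte gene by group, with the median of the 34 genes (blue bar), the median of all genes (black bar) and the lower bound of the 10% of all genes with the largest SD (dashed). Most points of Kit-D and Kit+D, with medians of 1.17 and 2.24, lie above the dashed line, and most points of Kit+, Kit-J and Kit+J below it.

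Other leukocyte and macrophage genes that were not among the 34 also averaged highest on replicate 1 of both OP9-Dll4 groups. The mean of 23 further leukocyte genes, such as the integrin chain Itgb2 and the actin regulator Nckap1l, was 0.205, -1.05 and -1.42 on Kit-D, against 0.973, -0.382 and -1.57 on Kit+D relative to fresh Kit- cells. The mean of 28 further macrophage genes was 0.246, -0.738 and -0.663 on Kit-D, against 0.925, -0.686 and -0.836 on Kit+D. Adgre1, which encodes F4/80, stood at 6.07, 3.53 and 3.38 on Kit-D and at 7.06, 3.40 and 3.73 on Kit+D, with a fresh range of 3.90 to 5.17. Single genes of these lists departed from the means. Within Kit-D, Cd14 of the macrophage list was highest on Kit-D 3, at 7.81 against 7.38 on Kit-D 1. Within Kit+D it was highest on Kit+D 1, at 8.53. Plcg2 of the leukocyte list was the highest of the Kit+D arrays on Kit+D 3, at 8.23 against 7.73 on Kit+D 1. Spi1, which encodes PU.1, stood at 6.85, 4.79 and 4.87 on Kit-D and at 8.80, 6.93 and 4.55 on Kit+D, with a fresh range of 6.60 to 7.65. Among the Kit+D arrays Myb, a factor of blood progenitors, was instead highest on Kit+D 2, at 8.88, with 8.46 on Kit+D 1 and 6.89 on Kit+D 3. S100a9, a calcium-binding protein abundant in neutrophils, stood at 11.45, 6.72 and 4.78 on Kit-D and at 10.17, 4.46 and 5.18 on Kit+D, with 9.02 to 9.83 on Kit- and 5.15 to 7.56 on Kit+. The 13 lymphoid genes varied less, with a mean between -0.609 and 0.237 on all arrays. Of the genes that were not among the 34, those whose deviations from their group means lay nearest to the mean deviation of the 34 were Lcp2, Pik3ap1, Arhgef6, Psmb8, Ifi205, Myo1g, Gpr171, Coro2a, Ncf4 and Acod1, where Ncf4 belongs to the further macrophage list. Their root mean square differences over the 17 arrays were 0.191 to 0.296, where the median gene had 0.815 and the 34 themselves had 0.204 (Fcgr3) to 0.773 (Cd53).

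Markers of other cells also differed between the OP9-Dll4 replicates. The mean of 16 stromal markers, relative to fresh Kit- cells, was -0.357, 0.568 and 0.619 on Kit-D, against -1.27, -0.89 and 0.0714 on Kit+D. The smooth muscle actin gene Acta2 stood at 7.16, 7.69 and 9.92 on Kit-D and at 4.76, 6.41 and 9.38 on Kit+D. The 16 germ cell markers averaged -1.85, -1.54 and -0.636 over the Kit-D arrays and -1.43, 1.11 and 1.79 over the Kit+D arrays, and Pou5f1, a pluripotency factor of primordial germ cells, stood at 4.75, 9.70 and 9.94 on Kit+D. The arrays with high leukocyte genes were thus those with the lower stromal and germ cell marker means in each gate. The mean of 18 endothelial markers was -2.58, -1.66 and -1.54 on Kit+D, and that of 10 erythroid markers was 0.2, 0.428 and -0.599 on Kit-D, against 0.867, 1.07 and -0.398 on Kit+D. Their part in the leukocyte values was not tested.

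The comparison of fresh Kit+ with fresh Kit- cells asked how the leukocyte genes differ between the sort that contains the blood-forming clusters and the endothelial sort. Cd27 was higher in Kit+ cells, by 1.65 on the log2 scale (SE 0.382, limma adjusted p = 0.0264), and Clec7a was lower, by -1.61 (SE 0.36, limma adjusted p = 0.0218). The other 32 were not called. The 2 calls are 2 of 34 genes, where 3.23% of all genes were called, 0.562% higher and 2.67% lower. Without overlap of the arrays, 4 genes were higher (16% of all genes) and 11 lower (10.5% of all genes), and the median difference of the 34 was -0.286 against 0.0649 for all genes. The 11 were Cd53, Cd52, Laptm5, Lcp1, Csf1r, Ccr2, Cx3cr1, Clec7a, Tyrobp, Cybb and Ctss, and the 4 were Cd27, Rac2, Was and Mpo. Markers of other cells moved with the gates. The 18 endothelial markers were all lower in Kit+ cells without overlap, with a median of -2.06, and 15 of 16 stromal markers were, with a median of -1.23. The 16 germ cell markers all had positive differences, with a median of 1.05 and 14 without overlap. Their part in the leukocyte differences was not tested. The call on Cd27 was lost on leaving out any of Kit- 1, Kit- 2, Kit- 3, Kit+ 2 or Kit+ 3 (limma adjusted p from 0.0618 to 0.128), and that on Clec7a on leaving out any of Kit- 1, Kit- 3, Kit+ 2 or Kit+ 3 (0.0557 to 0.109).

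The spread that limma used here was shared by all 6 groups, the OP9-Dll4 arrays included. When these were left out, a choice made after seeing the data, 5 of the 34 were called, where 4.57% of all genes were. Cd27 was higher as before (limma adjusted p = 0.00451). The 4 lower genes were Clec7a with a log2 difference of -1.61 (SE 0.213, limma adjusted p = 0.00112), Csf1r with -1.87 (SE 0.303, 0.00427), Ctss with -2.03 (SE 0.354, 0.00664) and Cybb with -3.34 (SE 0.263, 2.4e-05). In this fit 12 of the 16 germ cell markers were called higher. The differences themselves were the same in both fits, and only their errors shrank: for Cybb the SE was 1.07 with the OP9-Dll4 arrays in the fit. The 4 lower genes are receptors and effectors of macrophages, and of these 16 genes all but C1qa (0.00304), Csf2rb (0.388) and Fcgr3 (0.295) had negative differences in the fit over all arrays.

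**Figure D4:**
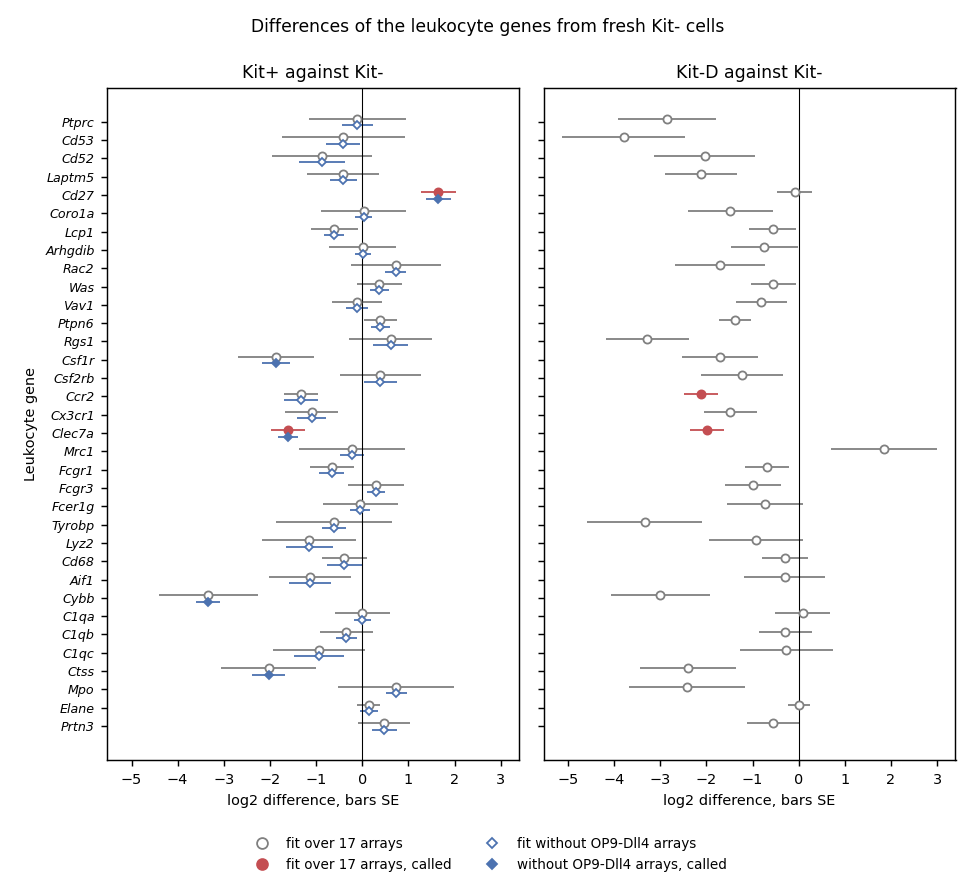
Log2 differences from fresh Kit- cells with their SE are plotted for each leukocyte gene, for Kit+ on the left and Kit-D on the right, with circles for the fit over 17 arrays and diamonds for the fit without OP9-Dll4 arrays, filled where called. On the left Cd27 and Clec7a are filled in both fits and Csf1r, Cybb and Ctss only in the second, and on the right Ccr2 and Clec7a are filled while wider bars surround genes such as Cd53 at -3.79 and Tyrobp at -3.34.

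The comparison of Kit-J with fresh Kit- cells asked what 2 h on OP9-Jag1 did in the Kit- gate. None of the 34 was called by limma, where 2.14% of all genes were (0.251% higher, 1.89% lower), and 3 had an unadjusted p under 0.05, as had 13.7% of all genes. Csf2rb was higher without overlap (19.7% of all genes), and 7 genes were lower (12.8%), among them Csf1r, Cx3cr1, Clec7a, Cybb and Ctss. The median difference of the 34 was -0.203 against 0.0854 for all genes. Csf2rb had the widest difference, 2.56 (SE 0.982, limma adjusted p = 0.256), followed by Cybb with -1.85 (SE 1.2, limma adjusted p = 0.522). In the fit without OP9-Dll4 arrays, chosen after seeing the data, both were called, 2 of 34 where 2.65% of all genes were. Csf2rb was higher with limma adjusted p = 0.00596 and Cybb lower with 0.00651. Their differences were unchanged and only the errors shrank, to 0.4 and 0.294, so these calls depend on that choice. Over the same arrays 18 of 18 endothelial markers were lower without overlap, with a median of -1.62, and 13 of 16 germ cell markers were higher without overlap, with a median of 0.69. Their part was not tested.

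The comparison of Kit-D with fresh Kit- cells asked the same of OP9-Dll4. Ccr2 and Clec7a were lower, 2 of the 34, where 0.171% of all genes were called, 0.145% higher and 0.0251% lower. Cd53, Laptm5, Rgs1, Ccr2 and Clec7a were lower without overlap, 5 of the 34, where 25.8% of all genes did not overlap, 13.4% lower. These 2 lay below fresh Kit- cells on all 3 arrays, as described above. Ccr2 had limma adjusted p = 0.0404 and Clec7a 0.0434. The median difference of the 34 was -1.11 against -0.0181 for all genes, and 11 had an unadjusted p under 0.05, all lower, where 11.2% of all genes had one and 4.78% were lower. Larger differences were not called where replicate 1 lay apart, as for Cd53 with -3.79 (SE 1.33, limma adjusted p = 0.285), Tyrobp with -3.34 (SE 1.25, 0.32) and Ptprc with -2.86 (SE 1.06, 0.316). The call on Ccr2 was lost on leaving out any of the fresh Kit- arrays, any of the fresh Kit+ arrays, Kit-D 2, Kit-D 3 or Kit+D 2 (limma adjusted p from 0.0525 to 0.191). That on Clec7a was lost on leaving out any of the fresh arrays, Kit-D 2, Kit-D 3 or Kit+J 3 (0.0509 to 0.208). With the replicate number as a random block Clec7a was lost (limma adjusted p = 0.0513) and Ccr2 was called (0.0403). With only the compared groups in the fit both were lost (0.0507 for Ccr2 and 0.0512 for Clec7a). Over the same arrays 10 of 16 germ cell markers were lower without overlap, with a median of -1.24, and their part was not tested.

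The direct comparison of the ligands in Kit- cells, Kit-J with Kit-D, called 3 of the 34, each above its Kit-D level, where 9.37% of all genes were called and 3.3% called higher. They were Ptpn6 (log2 difference 1.65, SE 0.396, limma adjusted p = 0.0191), Rgs1 (limma adjusted p = 0.0181) and Csf2rb (0.0274). For each of the 3 genes both Kit-J arrays lay above all Kit-D arrays. The median difference was 0.829 against 0.112 for all genes, and 8 of the 34 were higher without overlap, where 28.9% of all genes were (47.8% in either direction). Mrc1 was lower without overlap (18.9% of all genes), with a difference of -1.93 (SE 1.28, limma adjusted p = 0.342). All 3 calls were lost on leaving out any of Kit-J 1, Kit-J 2, Kit-D 2 or Kit-D 3 (limma adjusted p from 0.0609 to 0.137). Ptpn6 was also lost with array weights (limma adjusted p = 0.0744) and with only the compared groups in the fit (0.106), and all 3 genes were lost with cultured arrays alone (0.068 to 0.0891). Over the same arrays the 18 endothelial markers were all lower in Kit-J cells without overlap, with a median difference of -1.85. The 16 germ cell markers all had positive differences, with a median of 2.22, of which 9 were called and 13 lay without overlap. The part of either list was not tested.

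In the Kit+ gate no leukocyte gene was called against fresh Kit+ cells with either ligand. After OP9-Jag1 1 of the 34 had an unadjusted p under 0.05, as had 6.67% of all genes, and limma called 0.0201% of all genes (0% higher). That gene was Cd27, with a log2 difference of -1.25 (SE 0.382, limma adjusted p = 0.429), and 8 of the 34 were lower without overlap, where 6.06% of all genes were, and Csf2rb was higher (5.67%). The median difference of the 34 was -0.244 against 0.00242 for all genes. After OP9-Dll4 2 of the 34 had an unadjusted p under 0.05, both lower, where 17% of all genes had one and 8.16% were lower, and limma called 1.42% of all genes (1.04% higher, 0.381% lower). The median difference was -0.251 against -0.0223 for all genes, and none of the 34 was without overlap in either direction, where 22.1% of all genes did not overlap, 10.1% higher and 12% lower. Between the ligands, Kit+J against Kit+D, none of the 34 was called by limma and none had an unadjusted p under 0.05 (19.1% of all genes), where 2.25% of all genes were called (0.577% higher). Ptpn6 was higher without overlap (8.75% of all genes). The widest differences were again those of genes split between replicates, such as Mrc1 with -2.08 (SE 1.15, limma adjusted p = 0.34) and Cd53 with 2.03 (SE 1.33, 0.424).

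The last comparisons set the gates against each other after culture. On OP9-Jag1 none of the 34 was called by limma and 1 had an unadjusted p under 0.05 (10.7% of all genes), where 0.0903% of all genes were called (0.0552% higher, 0.0351% lower). The median of Kit+J minus Kit-J was -0.399 against -0.0254 for all genes, and 14 of the 34 were lower in Kit+J without overlap, where 9.97% of all genes were (20% in either direction). On OP9-Dll4 Ptpn6 was higher in Kit+D than in Kit-D by 1.48 (SE 0.354, limma adjusted p = 0.0132), 1 of 34 where 13.1% of all genes were called. Ptpn6 was lost on leaving out Kit-D 2 (limma adjusted p = 0.0598) or Kit-D 3 (0.0672), with only the compared groups in the fit (0.111) and with the replicate number as a fixed block (0.0592), where the chemokine receptor Cx3cr1 was called instead. Over the same arrays the 18 endothelial markers were all called lower in Kit+D and 7 of 16 germ cell markers called higher, and their part was not tested. Without Kit+D 3, whose description line named the other gate, 8 of the 34 were called, where 12.4% of all genes were. All 8 were higher in Kit+D. Kit+D 3 had the lowest mean of the 34 genes on any array, at -2.28. Kit-D 3, whose description line conflicted as well, was kept, with a mean of -2.13. This count therefore follows from the array removed and tests nothing. The difference in ligand effect between the gates, Kit-J minus Kit-D against Kit+J minus Kit+D, called none of the 34 by limma, with 3 at an unadjusted p under 0.05 (16.5% of all genes), where 1.98% of all genes were called. Leaving out Kit+D 3 gave 4 calls (3.83% of all genes), a count with the same limit.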

How the data were processed

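Processed log2 values of Affymetrix Mouse Gene 1.0 ST arrays were used as deposited. The authors amplified total RNA of sorted cells (NuGEN Ovation Pico WTA) and made the log2 values with RMA, per the labels; its version was not given in the sources used here. One Kit-J array was left out by the authors for technical reasons. Of 34760 probe sets, 21640 had 1 gene symbol, 1321 several and 11799 none. The brightest single-symbol probe set was kept for each of 19937 genes. The leukocyte genes and the other lists were chosen with earlier results of these data known. All 34 were named by rule, with the 10 nearest other genes and the defining markers or called members of other lists.

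Groups were taken from titles. Group means were compared in 1 limma model (version 3.58.1, R 4.3.3) over all 17 arrays, with Benjamini-Hochberg adjustment over all genes and calls at an adjusted p under 0.05. The method was tested on simulated data with independent noise and 1 SD per gene shared by all groups. That setting leaves out the unequal spread between groups seen here. Replicates were called biological in the labels but not tied to litters, so p-values measure the spread between these arrays. Same-numbered deviations from group means correlated at 0.462, 0.179 and 0.289 between Kit-D and Kit+D (other pairs at most 0.134). This was taken as pairing, although the labels give only a replicate number. Deviations from a shared group mean are not independent, and the main model held no block. The correlations were 0.00644, 0.0323 and 0.065 between Kit- and Kit+, and -0.114 and -0.263 between Kit-J and Kit+J, which was not taken as pairing. The number of arrays limits the precision. Alternatives covered scaling, dim genes, array weights, the arrays fitted, replicate blocks and single arrays left out. Figures were drawn with matplotlib 3.10.9.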

Additional observations from a re-analysis of the deposited data

How the results depend on the processing

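The differences called in the fit over 17 arrays, those of Cd27, Clec7a, Ccr2, Ptpn6, Rgs1 and Csf2rb, kept their sign under the alternatives run. Leaving out replicate 1, or replicates 2 and 3, of both OP9-Dll4 groups was chosen by the values of these same genes, so those counts describe the choice and test nothing. Between these choices Tyrobp (Kit+J against Kit+D), Ctss and Fcgr3 (Kit+D against Kit+) were called in opposite directions. Values below are leukocyte genes called. The share of all genes called under the same alternative is not printed beside them, nor beside the counts with blocks or 1 array left out. That share also changed: for Kit+ against Kit- it was 3.23% over 17 arrays and 4.57% without OP9-Dll4 arrays. A change in these counts is therefore not shown to be particular to the leukocyte genes. For Kit+ against Kit- they were 4 with housekeeping scaling (5 of 8 genes measured), 4 with array weights, 8 with only the groups compared and 5 without OP9-Dll4 arrays. For Kit-J against Kit- they were 2 with only the groups compared and 2 without OP9-Dll4 arrays. For Kit-D against Kit- they were 5 with array weights and 0 with only the groups compared (Ccr2 limma adjusted p = 0.0507, Clec7a 0.0512), 15 without the OP9-Dll4 replicate 1 and 1 without replicates 2 and 3. For Kit-J against Kit-D they were 2 with array weights and 2 with only the groups compared (both Csf2rb and Rgs1), 0 with cultured arrays alone, 18 without replicate 1 and 1 without replicates 2 and 3. For Kit+D against Kit+ they were 1 with array weights, 9 without replicate 1 and 15 without replicates 2 and 3. For Kit+J against Kit+D they were 4 and 22 without those replicates. For Kit+D against Kit-D they were 2 with array weights, 0 with only the groups compared, and 3 and 6 without those replicates. For the difference in ligand effect they were 2 and 4 without those replicates.

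With the replicate number as a fixed block, 7 were called for Kit+ against Kit- and 2 for Kit+J against Kit-J, where the numbers were not shown to pair the arrays. As a random block 1 was called for Kit-D against Kit-. The block changed the identity of the call for Kit+D against Kit-D, as reported, and no other count.

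With 1 array left out, calls ran from 0 to 5 for Kit+ against Kit-, 0 to 3 for Kit-D against Kit-, 0 to 7 for Kit-J against Kit-D, 0 to 2 for Kit+D against Kit+, 0 to 1 for Kit+J against Kit+D, 0 to 8 for Kit+D against Kit-D and 0 to 4 for the difference in ligand effect, and were 0 throughout for the other 3 comparisons. The arrays named in the report gave the losses. Without Kit+D 1, 5 were called for Kit+ against Kit-, 2 for Kit+D against Kit+ and 1 for Kit+J against Kit+D, and without Kit-D 1, 7 for Kit-J against Kit-D. Without Kit+D 3, 5 were called for Kit-J against Kit-D, as without Kit+D 1. The gap between the highest and lowest leukocyte mean was 0.153 to 0.782 for Kit-, 0.00596 to 0.113 for Kit+, 0.189 to 2.3 for Kit-D (lowest without Kit-D 1), 0.086 to 0.4 for Kit+J and 1.14 to 3.6 for Kit+D (lowest without Kit+D 1). With housekeeping scaling it was 0.0951 for Kit-J. Leukocyte genes among the 10% with the largest SD numbered 27 to 33 with 1 array left out, 11 without OP9-Dll4 arrays and 18 without the OP9-Dll4 replicate 1.

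Housekeeping scaling moved the median of all genes by -0.211 for Kit+ against Kit-, -0.125 for Kit+J against Kit-J and -0.137 for Kit+D against Kit-D. Elane stayed at or below the median signal of 5.286 on all but 1 array and was dropped by the filter on dim genes. Alternatives that left out groups of OP9-Dll4 arrays were chosen after seeing the data. Outlier tests were not run in groups of 3 arrays or fewer.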
